A study of Drosophila melanogaster with 8 samples.

Results

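The values described here follow the wild type Drosophila central nervous system (CNS) from 36 h to 72 h after puparium formation (APF). They come from 4 of the 8 RNA samples of the series, and the change of every gene is its value at 72 h divided by its value at 36 h. Each sample was RNA of about 10 dissected pupal CNS of the strain Canton S, with 2 biological replicates at each age. The other 4 samples, used here only for values beside those of wild type, came from ElavC155GAL4; dStimRNAi/tubulinGAL80ts animals with 24 h of pan-neuronal dStim knockdown at 36 h, or with 36 h of recovery after it at 72 h. Elav drives GAL4 in neurons, and the temperature-sensitive GAL80 restricts the knockdown to the warm period. In the study's scheme both genotypes were kept at 29 °C from 12 h to 36 h APF, so the 36 h CNS were taken straight from 29 °C and the 72 h CNS after a lower temperature, which is 22 °C in that scheme and 25 °C in the sample labels. Age and temperature cannot be told apart in these values. The sex of the pupae is not given in the sources used here.

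Between these ages the fly brain is rebuilt into its adult form. Neurons born in the larva and early pupa finish extending axons and choosing partners, then form synapses and acquire the channels, transmitters and receptors of adult neurons. Pulses of the steroid hormone ecdysone time this programme through cascades of transcription factors, and the same pulses time the laying down of the adult cuticle and the maturation of the eye.

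Expression was measured as FPKM, the fragments mapped to a gene per unit of its transcript length and of library size, so levels can be compared between genes per length. The deposited tables used here give a single FPKM per gene and group, pooled over the 2 replicates, so the values carry no SD and no difference between ages was tested. The 2 ages were normalized in separate tables, each together with the knockdown group of its own age, and a level set across them rests on that. Of 13989 genes in both tables, 9739 had a mean wild type FPKM of at least 1 and are the genes counted as expressed below. A change is called a 2-fold difference where one age has at least 2 times the FPKM of the other, which is a size and not a test.

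Most of the transcriptome shifted by less than 2-fold, but large blocks of genes did not. Among the expressed genes, 1490 (15.3%) were at least 2-fold higher at 72 h, 2515 (25.8%) were at least 2-fold lower, and 5734 differed by less. Wider differences were common, since 824 genes were at least 4-fold higher and 907 at least 4-fold lower, and 381 and 267 were at least 16-fold higher and lower. The median gene changed by -0.39 on the log2 scale, that is, it was 1.31-fold lower at 72 h, while the summed FPKM was nearly equal (632583 at 36 h and 635372 at 72 h). Set relative to that median gene, 1999 genes (20.5%) were at least 2-fold higher and 1640 (16.8%) at least 2-fold lower. The majority direction among changed genes therefore turns with the scale, from 37.2% higher as deposited to 54.9% higher on the centred scale. Counts and medians below are on the deposited scale, and each list is to be read against the percentages and the median of all genes.

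**Figure D1:**
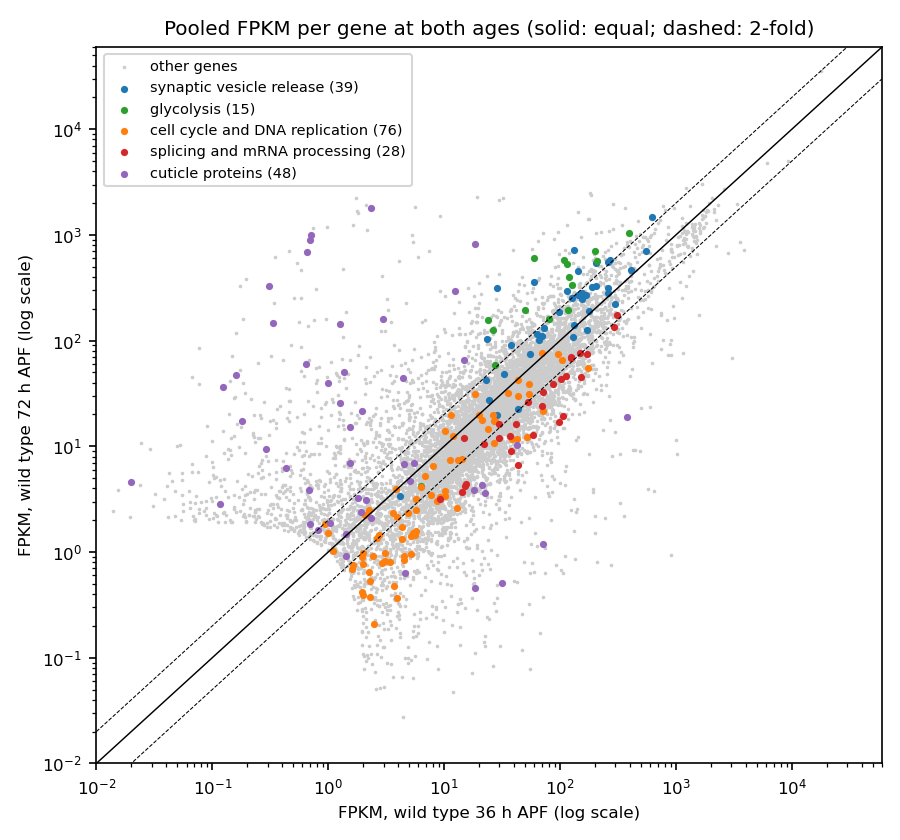
FPKM of each expressed gene in wild type CNS at 36 h APF (x axis) and 72 h APF (y axis), both on log scales, for the 9560 genes with a value above 0 at both ages, with 5 gene lists in colour. The solid line marks equal values and the dashed lines a 2-fold difference. Glycolysis and synaptic vesicle genes sit mostly on or above the solid line, splicing and cell cycle genes mostly below it, and cuticle genes reach far above it.

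The direction of most differences was also seen in the separate knockdown samples of the same ages. In those, 1445 of the same genes (14.8%) were at least 2-fold higher at 72 h and 2807 (28.8%) at least 2-fold lower. Of the genes at least 2-fold higher in wild type, 1142 passed the same size in the knockdown pair, which is 76.6% of the wild type set and 79.0% of the knockdown set. Of those at least 2-fold lower, 2164 passed in both, 86.0% of the wild type set and 77.1% of the knockdown set. Opposite 2-fold differences were rarer, with 118 genes higher in wild type and lower after knockdown and 22 the other way. Across the 9441 genes with a log2 change in both genotypes, Pearson's r was 0.89, Spearman's rho was 0.90 and the median gap between the changes was 0.25 on the log2 scale. These points share the sequencing lane and, within each age, the normalization, and genes are not independent replicates.

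The samples carried the defining transcripts of a CNS and some of other tissues. The neuronal markers elav, n-syb, Syt1, brp and fne were all well above 1 at both ages. In wild type they summed to 1488 FPKM at 36 h and 1504 at 72 h, and in the knockdown pair to 1644 and 2336. The near-equal wild type sums hide a split, with elav, fne and brp lower at 72 h and n-syb and Syt1 higher. The 7 glial markers, among them repo (57.7 at 36 h and 37.5 at 72 h) and Gs2, summed to 727 and 4710. Of the neuroblast markers dpn, ase, mira and wor, none reached an FPKM of 1 at 36 h, and only dpn did at 72 h, at 2.61. Transcripts of tissues that lie against the CNS were present too. The fat body list summed to 432 and 441, and the hemocyte marker Pxn was at 147 at 36 h and 115.03 at 72 h. The hemocyte genes Hml, nimC1 and eater were all under 1 at 36 h, the lowest at 0.0272. At 72 h they were between 0.775 and 1.12, so they were higher than at 36 h but still low, while Pxn was lower. The fat body list had 1 gene at least 2-fold higher and 2 lower of 13 expressed, and the hemocyte list 4 higher and 4 lower of 11. In these bulk samples more cells of a type and more RNA per cell cannot be told apart.

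Transcripts of the male germline were present in the wild type 72 h samples. They were noticed in these values, and a list of 42 testis genes was written afterwards, so its levels are given as a description. Over all 41 genes found, with no minimum, 29 had an FPKM of at least 1 in wild type at 72 h, against 8 in wild type at 36 h, 6 in knockdown at 36 h and 4 in knockdown and recovery at 72 h. Their median FPKM was 4.02, 0.135, 0.161 and 0.0463 in that order. Of 30 members past the minimum, which most passed through their wild type 72 h value, 26 were at least 2-fold higher at 72 h in wild type, and a count over such members supports nothing. Mst84Da, which encodes a sperm tail protein, was listed at 0 at 36 h and at 23.9 at 72 h in wild type, and at 0 in knockdown and recovery. Another sperm protein gene, Mst87F, was at 0.139 at 36 h and 20.4 at 72 h. The gene bol, which acts in meiosis of the testis, did not share this pattern. It was at 55.3 at 36 h and 112 at 72 h in wild type, and at 56.5 and 179 in the knockdown pair. Without bol, the highest of these higher members in knockdown and recovery was at 2.68. The part of testis RNA in any difference was not tested. Separately, 267 of all 1490 genes higher at 72 h (17.9%) had an FPKM under 1 in the knockdown and recovery group. The testis list, with 41 genes found, is too short to hold most of them, so it does not show which tissue they came from.

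The most abundant transcripts changed rank. Obp44a, an odorant-binding protein gene expressed in glia, had the highest FPKM at both ages, 17817 at 36 h and 35566 at 72 h, and its share of the summed FPKM went from 2.82% to 5.598%. At 36 h the 10 highest genes were otherwise ribosomal (RpL41, RpL39, RpL29, RpS27A), the histone H4 replacement gene His4r, the small heat shock gene Hsp23 and 3 cytoskeletal genes. Those 3 were betaTub56D at 3883 at 36 h and 714 at 72 h, alphaTub84B at 3586 at 36 h and 859 at 72 h and the cytoplasmic actin gene Act5C at 2831 at 36 h and 669 at 72 h. By 72 h the cytoskeletal genes and Hsp23 had left the highest 10. In their place stood calmodulin (Cam, 1694 at 36 h and 3004 at 72 h), the catalytic subunit of the sodium pump (Atpalpha, 1218 at 36 h and 2794 at 72 h), the GABA transporter CG1732 (Gat, 182 at 36 h and 2475 at 72 h), the tetraspanin-family gene TM4SF (185 at 36 h and 2376 at 72 h) and the unnamed genes CG15201 and CG13067.

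Synaptic vesicle genes were mostly higher at 72 h, and genes of the active zone went in both directions. Of 44 genes written for vesicle release, 40 were found, 39 were expressed, 12 were at least 2-fold higher and 0 lower, with a median log2 change of 0.71 against -0.39 for all genes. The vesicle membrane protein gene synaptogyrin went from 28.5 to 317, 11.1-fold. The ATPase that disassembles SNARE complexes, comt, was 6.02-fold higher (59.9 at 36 h and 361 at 72 h), and the synapse-associated protein gene Sap47 5.41-fold (133 at 36 h and 718 at 72 h). Among the SNAREs, Snap25 was 3.21-fold higher (142 at 36 h and 456 at 72 h), n-syb was at 549 at 36 h and 703 at 72 h and Syx1A at 70.1 at 36 h and 109.9 at 72 h, so the 3 partners of the same complex differed in size of change. The calcium sensor Syt1 was at 259 at 36 h and 551 at 72 h and the SNARE clamp cpx at 617 at 36 h and 1469.5 at 72 h. Of the active zone genes, brp, the main scaffold protein, was at 172 at 36 h and 126 at 72 h, unc-13 at 295 at 36 h and 221 at 72 h and Liprin-alpha at 43.3 at 36 h and 22.4 at 72 h, while the scaffold genes Rim (23.0 at 36 h and 42.4 at 72 h) and CG43073 (Rbp, 37.5 at 36 h and 91.1 at 72 h) were higher, the latter by over 2-fold. In the knockdown pair brp was at 196 and 215, and the list's median was 1.15.

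Enzymes and transporters of the transmitters had the largest shift of all neuronal lists. Of 30 expressed genes, 21 were at least 2-fold higher and 0 lower, with a median of 1.59, and their share of the summed FPKM went from 0.264% to 1.38%. Ddc, which makes dopamine and serotonin from their precursors, was 25.8-fold higher (10.2 at 36 h and 263 at 72 h). Tyrosine hydroxylase (ple), the first enzyme of dopamine synthesis, was at 4.90 at 36 h and 27.5 at 72 h. The samples also held cuticle transcripts, whose list summed to 713 at 36 h and 6961 at 72 h. How much of the Ddc and ple RNA came from tissue other than neurons was not tested. In the GABA pathway, the synthesizing enzyme Gad1 was at 57.8 at 36 h and 735 at 72 h, the plasma membrane transporter CG1732 was 13.6-fold higher and the vesicular transporter VGAT was at 92.2 at 36 h and 208 at 72 h. Choline acetyltransferase (Cha), which makes acetylcholine, was 8.70-fold higher (16.9 at 36 h and 147 at 72 h), and the vesicular transporter VAChT, encoded in the same locus, was at 47.8 at 36 h and 128 at 72 h. Acetylcholinesterase (Ace), which ends the signal, was nearly level (137 at 36 h and 129 at 72 h), and the octopamine enzyme Tbh was at 29.5 at 36 h and 26.6 at 72 h. VGlut, the vesicular glutamate transporter, was just under 2-fold higher (86.2 at 36 h and 166 at 72 h). The largest fold of the list belonged to CG3790 (Balat), the beta-alanine transporter of the histamine cycle in the visual system, at 0.322 at 36 h and 71.5 at 72 h.

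Ion channels and receptors had smaller median changes than transmitter genes. Among 37 expressed channel genes, 15 were at least 2-fold higher and 2 lower (median 0.74). The exchanger Nckx30C was 6.93-fold higher (39.2 at 36 h and 272 at 72 h), the hyperpolarization-activated channel Ih 4.63-fold (35.2 at 36 h and 163 at 72 h) and the A-type potassium channel Shal 2.95-fold (39.0 at 36 h and 114.92 at 72 h). The sodium channel para was at 47.1 at 36 h and 85.9 at 72 h and the potassium channel Sh at 49.3 at 36 h and 70.6 at 72 h, both under 2-fold. The 2 genes at least 2-fold lower were Irk2, an inward rectifier potassium channel (34.8 at 36 h and 6.03 at 72 h), and the unnamed CG8713 (2.02 at 36 h and 0.473 at 72 h). Of 11 expressed acetylcholine receptor genes none differed by 2-fold (median 0.38), and gfA (nAChRalpha7) was the lowest relative to 36 h, at 348 at 36 h and 189 at 72 h. The receptors for GABA, glutamate and histamine had 6 of 19 genes at least 2-fold higher, led by the muscle-type glutamate receptor subunit GluRIIA (2.30 at 36 h and 16.1 at 72 h) and the ligand-gated chloride channel Grd (3.37 at 36 h and 13.8 at 72 h) and including the NMDA receptor genes Nmdar1 (38.1 at 36 h and 102 at 72 h) and Nmdar2 (16.9 at 36 h and 45.4 at 72 h), and 2 at least 2-fold lower, the kainate receptor gene CG9935 (Ekar, 24.1 at 36 h and 4.41 at 72 h) and the histamine-gated chloride channel HisCl1 (15.97 at 36 h and 3.62 at 72 h). The other histamine channel, ort, which receives photoreceptor input, was at 12.3 at 36 h and 27.5 at 72 h. Of 48 amine and peptide receptors, 8 were at least 2-fold higher and 0 lower, led by the octopamine receptor oa2 (Octbeta1R, 10.97 at 36 h and 38.4 at 72 h) and the dopamine and ecdysone receptor DopEcR (87.3 at 36 h and 265 at 72 h).

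Neuropeptide genes split by peptide. Of 45 expressed, 21 were at least 2-fold higher and 3 lower (median 0.94). The insulin-like peptide Ilp5 of the brain's insulin-producing cells was at 5.32 at 36 h and 65.7 at 72 h and Ilp2 at 8.01 at 36 h and 62.2 at 72 h. Proctolin (Proct) was at 6.36 at 36 h and 69.7 at 72 h, and Pdf, the peptide of clock neurons, at 16.7 at 36 h and 117 at 72 h. The prohormone convertase amon (37.9 at 36 h and 197 at 72 h) and the amidating enzyme Pal (48.9 at 36 h and 334.4 at 72 h), which mature many of these peptides, were 5.19-fold and 6.83-fold higher. Peptides of ecdysis were less uniform, since burs and pburs, the subunits of bursicon, stood at 80.5 at 36 h and 68.3 at 72 h and at 131 at 36 h and 97.6 at 72 h, while Eh, eclosion hormone, was at 8.75 at 36 h and 31.4 at 72 h. Myosuppressin (Dms), which acts on visceral muscle, was at 71.7 at 36 h and 222 at 72 h. Nplp4 was listed at 0 at 36 h and at 2.07 at 72 h. The 3 lower genes were Nplp3 (99.8 at 36 h and 4.45 at 72 h), the adipokinetic hormone gene Akh (48.8 at 36 h and 20.6 at 72 h) and dimm, a factor of peptidergic cells (2.43 at 36 h and 0.952 at 72 h).

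Most genes of energy supply were higher. Glycolysis had 12 of 15 expressed genes at least 2-fold higher and 0 lower, with a median of 1.73, and its share of the summed FPKM went from 0.262% to 0.893%. Pyruvate kinase (PyK) was 10.2-fold higher (59.4 at 36 h and 609 at 72 h), phosphofructokinase (Pfk), the main control point of the pathway, 6.597-fold (23.9 at 36 h and 158 at 72 h), and phosphoglycerate mutase (Pglym78) 5.38-fold (108 at 36 h and 581 at 72 h). Lactate dehydrogenase, listed as ImpL3, did not follow, at 6.34 at 36 h and 4.19 at 72 h. Of 43 genes of the respiratory chain and ATP synthase, 11 were at least 2-fold higher and 1 lower, and the list held 2.34% of the summed FPKM at 36 h and 4.27% at 72 h. The lower gene was Idh (185 at 36 h and 80.1 at 72 h), an isocitrate dehydrogenase. The largest difference was that of cytochrome c (Cyt-c-p, 362 at 36 h and 1813 at 72 h), and sesB, the mitochondrial ADP/ATP carrier, was at 781 at 36 h and 1880.5 at 72 h. The vacuolar proton pump, which acidifies synaptic vesicles and lysosomes, had 12 of 17 subunits at least 2-fold higher and 0 lower (median 1.46), with Vha36 at 129.7 at 36 h and 539 at 72 h and Vha55 at 158 at 36 h and 622 at 72 h. Among its subunits with alternative copies, Vha68-1 was at 195 at 36 h and 666 at 72 h and Vha68-2 at 32.8 at 36 h and 51.0 at 72 h. The subunit copy VhaM9.7-1 was lower (19.95 at 36 h and 10.7 at 72 h). The sodium pump subunits nrv2 and nrv3 were at 179 at 36 h and 1407 at 72 h and at 801 at 36 h and 1725 at 72 h, whereas nrv1 was 8.83-fold lower (95.3 at 36 h and 10.8 at 72 h).

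**Figure D2:**
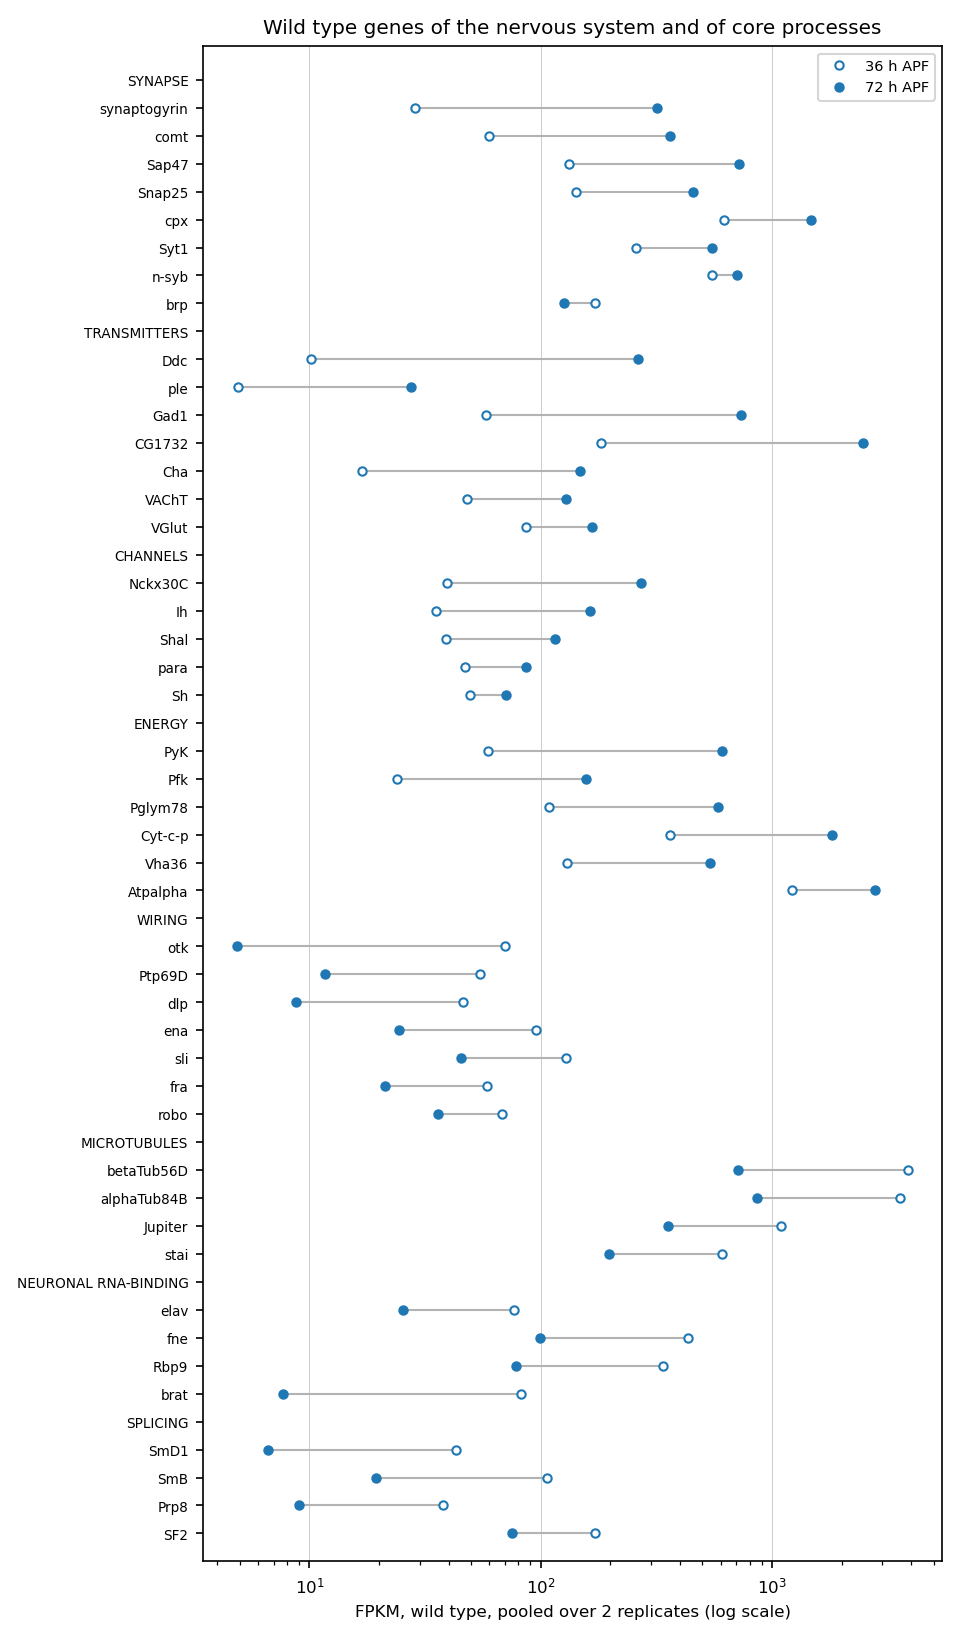
Wild type FPKM at 36 h APF (open circles) and 72 h APF (filled circles) on a log scale for genes of the synapse, transmitters, channels, energy supply, axon wiring, microtubules, neuronal RNA-binding proteins and splicing, each circle a value pooled over 2 replicates with no error. All genes shown for transmitters, channels and energy are higher at 72 h, and all shown for wiring, microtubules, RNA-binding and splicing are lower.

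Axon guidance genes were mostly lower at 72 h. Of 58 expressed, 0 were at least 2-fold higher and 21 at least 2-fold lower, with a median of -0.75. The largest difference was that of otk (14.4-fold, 69.9 at 36 h and 4.84 at 72 h), a receptor kinase-like protein of Wnt and Semaphorin signalling, followed by the Wnt receptor dnt (36.6 at 36 h and 5.55 at 72 h). The glypican dlp was at 46.1 at 36 h and 8.73 at 72 h, the receptor phosphatase Ptp69D at 54.5 at 36 h and 11.7 at 72 h and the actin regulator ena at 95.8 at 36 h and 24.4 at 72 h. The midline repellent sli was 2.83-fold lower (128 at 36 h and 45.3 at 72 h). Of its receptors, lea (Robo2) was at 25.3 at 36 h and 9.67 at 72 h, robo at 68.2 at 36 h and 36.0 at 72 h and robo3 at 68.6 at 36 h and 47.8 at 72 h, the last 2 within 2-fold. The netrin receptor fra was at 58.4 at 36 h and 21.3 at 72 h. Lar (149 at 36 h and 154 at 72 h) and trio (70.2 at 36 h and 89.9 at 72 h) were not lower. Relative to the median gene the list was lower by less, with 9 of 58 genes past 2-fold (15.5%, against 16.8% of all genes). The immunoglobulin proteins of the dpr, DIP, beat and side families, which label synaptic partners, had a positive median of 0.51 and had 2 of 34 past 2-fold higher, dpr4 (57.0 at 36 h and 137 at 72 h) and beat-VII (11.3 at 36 h and 24.5 at 72 h).

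The main tubulins were lower as well. Of 30 tubulin and microtubule genes 8 (26.7%) were at least 2-fold lower, near the share of all genes (25.8%), and 1 was higher. The list's share of the summed FPKM went from 1.80% to 0.617%. The tubulins betaTub56D and alphaTub84B accounted for most of the difference, 5.44-fold and 4.18-fold lower. The tubulin-binding proteins Jupiter (1089 at 36 h and 355 at 72 h) and stai, the fly stathmin (605 at 36 h and 197 at 72 h), were lower too. Stable microtubule proteins of axons were closer to level, with tau at 224 at 36 h and 201 at 72 h and futsch at 59.8 at 36 h and 44.3 at 72 h, and the motor of synaptic vesicle precursors, unc-104, was at 204.8 at 36 h and 328 at 72 h. The single gene past 2-fold higher was the testis tubulin betaTub85D (4.24 at 36 h and 9.06 at 72 h).

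RNA-binding proteins of neurons had a negative median. Among 28 expressed, 9 were at least 2-fold lower and 1 higher (median -0.70). The 3 ELAV family genes were all at least 2-fold lower. The usual marker of neurons, elav, was at 76.7 at 36 h and 25.5 at 72 h, fne at 431 at 36 h and 99.2 at 72 h and Rbp9 at 339 at 36 h and 78.3 at 72 h, 3.01-fold, 4.35-fold and 4.33-fold lower. Syp, listed as CG17838, which promotes late neuronal fates, was at 144 at 36 h and 37.8 at 72 h and the growth repressor brat at 82.5 at 36 h and 7.66 at 72 h. The splicing regulator ps (pasilla) was the exception, at 30.7 at 36 h and 155 at 72 h. Within the neuronal identity list, which holds both elav and Snap25, 4 of 20 genes were at least 2-fold higher and 4 lower, with a median of -0.13.

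Cell cycle genes were mostly lower. Of 94 cell cycle and replication genes found, 76 were expressed, with a median of -1.12. Of these, 41 were at least 2-fold lower (53.9%, against 25.8% of all genes) and 0 higher. Over all 94, 16 were under 1 at 36 h and 39 at 72 h. Some therefore passed the minimum only through their 36 h value and were lower by that choice, so the count is a description. At a mean FPKM of at least 10 the median was -0.59. RnrS, a subunit of the enzyme that makes deoxynucleotides, was at 2.47 at 36 h and 0.208 at 72 h, the checkpoint kinases mei-41 and lok were at 3.93 at 36 h and 0.365 at 72 h and at 3.67 at 36 h and 0.473 at 72 h, topoisomerase 2 (Top2) was at 51.4 at 36 h and 12.3 at 72 h and E2f, the transcription factor of S phase genes, at 42.7 at 36 h and 11.7 at 72 h, while the mitotic cyclins CycA and CycB were already low at 36 h (6.32 and 2.30). Of 46 expressed neuroblast and lineage factors, 12 (26.1%) were at least 2-fold lower, a share close to that of all genes (25.8%), and 1 was higher. The higher gene was dpn. The largest difference was that of esg, a Snail-family factor, 68.8-fold lower (19.3 at 36 h and 0.280 at 72 h). The transcription factor gene grh of the same list was at 5.52 at 36 h and 0.260 at 72 h. The neuroblast markers dpn, ase, mira and wor were all under 1 at 36 h, and which cells held the esg and grh RNA was not tested. Of 8 expressed genes of the Hox list 3 were at least 2-fold lower and 0 higher, namely abd-A (9.94 at 36 h and 2.14 at 72 h), Abd-B (3.16 at 36 h and 0.770 at 72 h) and Ubx (6.24 at 36 h and 2.43 at 72 h), which pattern the posterior body.

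The splicing list stood lowest among the lists of the core machinery. All 28 of its genes were expressed, 21 were at least 2-fold lower and 0 higher, with a median of -1.28. The Sm core proteins SmD1 (43.2 at 36 h and 6.602 at 72 h), SmF (97.3 at 36 h and 16.9 at 72 h) and SmB (106 at 36 h and 19.3 at 72 h) were 6.5397-fold, 5.75-fold and 5.48-fold lower, and Prp8, the central protein of the spliceosome, was at 37.7 at 36 h and 8.99 at 72 h. Translation factors had 13 of 31 genes at least 2-fold lower and 1 higher (median -0.93), with Ef1alpha100E at 1232 at 36 h and 328 at 72 h and eIF3-S8 at 120.4 at 36 h and 33.1 at 72 h. The gene counted as higher, eIF4E-5, was at 0.235 at 36 h and 2.39 at 72 h in wild type and at 0.0979 in knockdown and recovery. Nucleolar and ribosome assembly genes had 7 of 30 at least 2-fold lower and 0 higher, and the share lower (23.3%) was below that of all genes (25.8%), with dm, the fly Myc, at 6.56 at 36 h and 1.03 at 72 h.

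The 2 sets of ribosomal protein genes differed in median. The cytoplasmic set, 82 expressed genes, had a median of -0.37, 4 genes at least 2-fold lower and 0 higher, and its share of the summed FPKM was 18.4% at 36 h and 14.04% at 72 h. In the knockdown pair its median was -0.66, against -0.41 for all genes, with 12 genes at least 2-fold lower. The mitochondrial set of 73 had a median of -0.07, with 1 gene past 2-fold lower and 0 higher. Of 30 expressed proteasome genes 4 were at least 2-fold lower, 1 higher and 25 within 2-fold (median -0.67). Of 4 expressed histone genes 1 was at least 2-fold lower and 0 higher, the variant His2Av at 245 at 36 h and 83.8 at 72 h. A housekeeping list of 17 genes had 3 higher and 6 lower, with a median of -0.31.

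**Figure D3:**
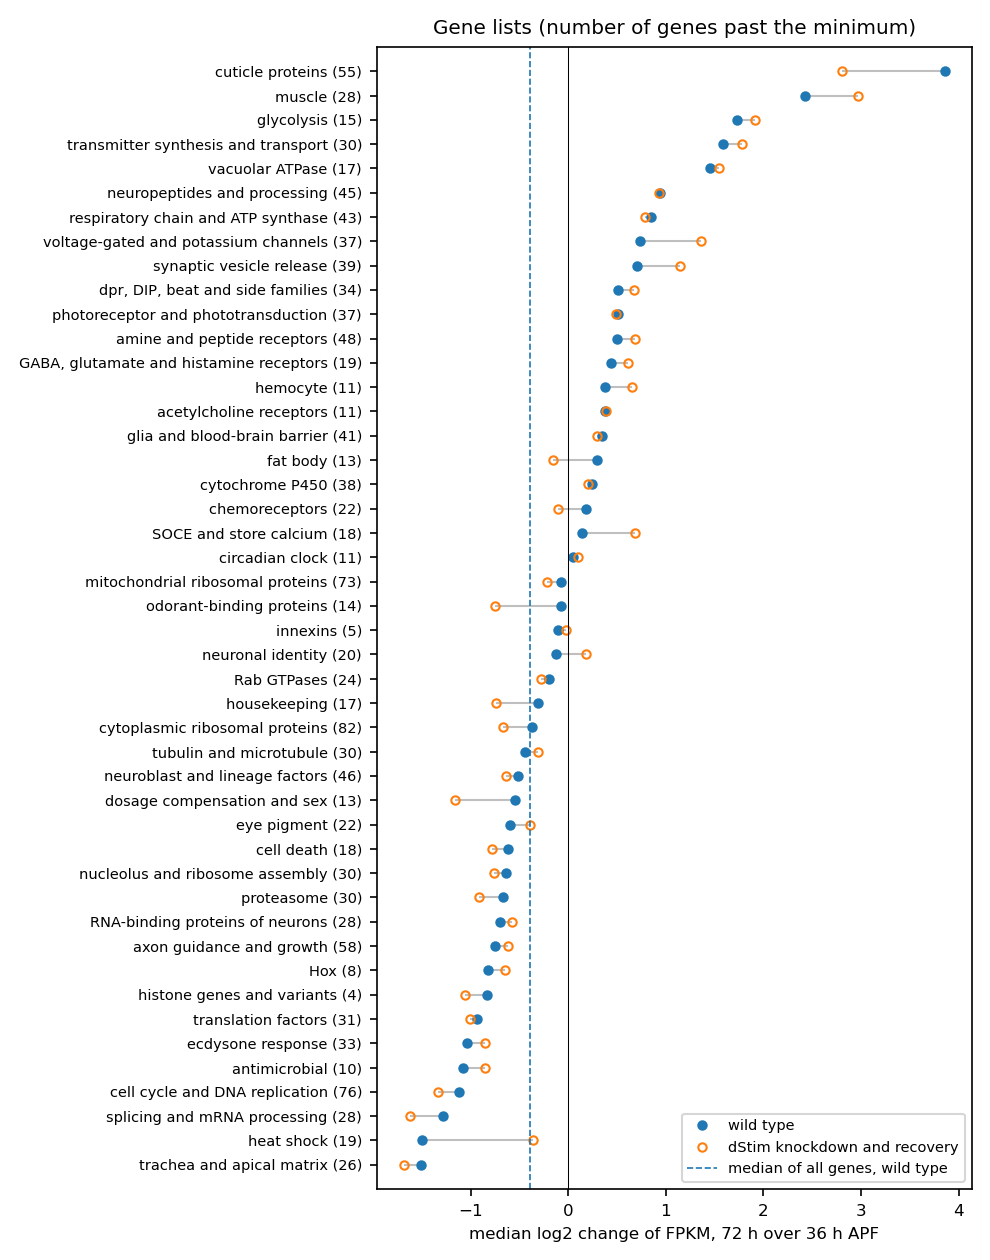
Median log2 change of FPKM from 36 h to 72 h APF (x axis) over the expressed genes of each of 46 lists (number of genes in brackets), in wild type (filled) and in the dStim knockdown and recovery pair (open). The dashed line is the median of all expressed genes in wild type, -0.39, and the lists run from cuticle proteins at 3.86 to the trachea and apical matrix list at -1.50.

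Genes of the ecdysone response went in both directions. Of 33 expressed genes, 17 were at least 2-fold lower and 5 higher (median -1.03). The receptor itself was level, with EcR at 31.9 at 36 h and 29.7 at 72 h and its partner usp at 34.2 at 36 h and 31.9 at 72 h. Early and early-late genes that ecdysone induces were at their higher values at 36 h, Eip75B at 203 at 36 h and 35.0 at 72 h, Hr46 (Hr3) at 178 at 36 h and 66.1 at 72 h, Hr4 at 145 at 36 h and 20.3 at 72 h and Eip78C at 165 at 36 h and 49.9 at 72 h. Blimp-1, a repressor that delays ftz-f1, was 55.2-fold lower (63.5 at 36 h and 1.15 at 72 h), and ftz-f1, the competence factor that follows a hormone pulse, was 50.6-fold higher (1.32 at 36 h and 66.8 at 72 h). These 2 genes changed places in level, and in the knockdown pair Blimp-1 was at 95.0 and 0.956 and ftz-f1 at 1.37 and 106. Eip93F, a factor of metamorphosis, was at 22.1 at 36 h and 8.04 at 72 h and the ecdysone importer Oatp74D at 51.4 at 36 h and 120.2 at 72 h. The ecdysone-inducible gene ImpL1 (dm3 chr3L:13375857-13377099) was among the largest differences of all, 1026 at 36 h and 8.48 at 72 h, and the hormone receptor-like gene Hr38 was 19.5-fold higher (0.171 at 36 h and 3.33 at 72 h). Edg91, an ecdysone-dependent gene of the cuticle list, was listed at 0 at 36 h and at 15.5 at 72 h.

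Glial genes went in both directions. Of 41 expressed, 10 were at least 2-fold higher (24.4%, against 15.3% of all genes), with a median of 0.34. The 7 that were at least 2-fold lower (17.1%) were a smaller share than among all genes (25.8%). The list's share of the summed FPKM was 3.26% and 7.24%, most of it Obp44a. Transporters and enzymes of astrocyte-like glia were among the higher ones. The largest fold was that of Npc2h, a sterol-binding protein gene (0.0721 at 36 h and 3.42 at 72 h). Eaat1, which takes up glutamate, was 6.24-fold higher (153 at 36 h and 952 at 72 h), glutamine synthetase (Gs2) 6.85-fold (289 at 36 h and 1980.3 at 72 h) and alrm, listed as CG11910, 11.5-fold (142 at 36 h and 1631 at 72 h). The cortex glia gene wrapper was at 28.4 at 36 h and 21.6 at 72 h and the glial identity factor repo at 57.7 at 36 h and 37.5 at 72 h. Septate junction genes of the blood-brain barrier were on the lower side, with Lac at 225 at 36 h and 33.8 at 72 h, Mcr at 40.8 at 36 h and 8.57 at 72 h, pck at 52.02 at 36 h and 19.4 at 72 h and Nrx-IV at 99.8 at 36 h and 53.8 at 72 h, while the barrier's receptor moody (29.4 at 36 h and 37.6 at 72 h) and transporter Mdr65 (27.7 at 36 h and 49.3 at 72 h) were not.

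Genes of the eye showed both directions. The photoreceptor list had 15 of 37 expressed genes at least 2-fold higher (40.5%, against 15.3% of all genes). Another 8 were at least 2-fold lower (21.6%, against 25.8%). Over all 40 found, 10 were under 1 at 36 h and 2 at 72 h. Some therefore passed the minimum only through their 72 h value and were higher by that choice, so the count is a description. The median of 0.51 was -0.11 over genes with status OK in both tables. The rhodopsin of the outer photoreceptors, ninaE (dm3 chr3R:15711968-15713928), was at 0.344 at 36 h and 225 at 72 h. Of the other rhodopsins, Rh3 was at 0.227 at 36 h and 19.9 at 72 h, Rh4 at 0.0290 at 36 h and 9.38 at 72 h and the ocellar Rh2 at 0.0770 at 36 h and 39.0 at 72 h. Arr1, the arrestin that binds rhodopsin, was at 0.157 at 36 h and 29.3 at 72 h, and inaF-D at 27.8 at 36 h and 169 at 72 h. The photoreceptor transcription factor gl was 11.5-fold lower (18.8 at 36 h and 1.64 at 72 h) and the adhesion protein chp at 104.1 at 36 h and 37.8 at 72 h. Of 22 eye pigment genes 4 were at least 2-fold higher and 7 lower. The ommochrome enzyme cn (26.8 at 36 h and 0.328 at 72 h) and the pigment transporters st (42.8 at 36 h and 0.516 at 72 h) and bw (85.9 at 36 h and 3.70 at 72 h) were lower, and the pteridine pathway genes se (2.88 at 36 h and 52.9 at 72 h), Hn (0.827 at 36 h and 8.50 at 72 h) and Pu (11.3 at 36 h and 46.7 at 72 h) and the retinoid enzyme Pdh (2.14 at 36 h and 39.6 at 72 h) were higher.

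Cuticle and muscle lists had the largest medians of the 46 lists written from gene function, 3.86 and 2.42 on the log2 scale. The cuticle median depended on which genes were kept, and was 5.41 at a mean FPKM of at least 10 and 0.85 over genes with status OK in both tables, the mark of genes that Cuffdiff could test, where those of muscle (2.26) and glycolysis (1.73) were above it. Of 121 cuticle genes found only 55 were expressed, 36 of them at least 2-fold higher and 9 lower. The others stayed below a mean FPKM of 1. Over all 121, 88 were under 1 at 36 h and 66 at 72 h. Some therefore passed the minimum only through their 72 h value and were higher by that choice, so the count is a description. The list summed to 713 FPKM at 36 h and 6961 at 72 h in wild type and to 489 and 4897 in the knockdown pair. Cpr64Ad (dm3 chr3L:4215387-4216414) was at 2.33 at 36 h and 1802 at 72 h, Cpr64Ab at 0.717 at 36 h and 1001 at 72 h and TwdlBeta at 0.690 at 36 h and 898 at 72 h, while TwdlE (70.8 at 36 h and 1.19 at 72 h), Cpr72Ea (31.3 at 36 h and 0.514 at 72 h) and Cpr66D (375 at 36 h and 19.0 at 72 h) were lower. Some cuticle genes separated the genotypes at 72 h, as Cpr65Ea, at 298 in wild type and 3.15 in knockdown and recovery, and Lcp65Ag2, at 40.0 and 0.3001. Muscle genes were at least 2-fold higher in 19 of 28 cases and lower in 2, and summed to 626 and 2166. The muscle genes Mf (0.618 at 36 h and 46.7 at 72 h) and Mp20 (1.86 at 36 h and 88.5 at 72 h) had the largest folds. Among the muscle actins Act57B was at 29.9 at 36 h and 424 at 72 h, the flight muscle gene Act88F at 0.865 at 36 h and 23.0 at 72 h and Act79B at 16.4 at 36 h and 5.24 at 72 h. The giant protein gene sls was at 3.37 at 36 h and 1.62 at 72 h. How far cuticle and muscle RNA came from tissue carried along in dissection was not tested.

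The apical matrix list had the lowest median of those 46 lists, with 15 of 26 expressed genes at least 2-fold lower, 2 higher and a median of -1.50. Chitinase Cht5 was at 447 at 36 h and 9.31 at 72 h and chitin synthase kkv at 35.3 at 36 h and 4.09 at 72 h. The zona pellucida proteins that shape apical surfaces were lower, mey at 47.2 at 36 h and 0.117 at 72 h, nyo at 28.0 at 36 h and 0.278 at 72 h, dyl at 178 at 36 h and 8.50 at 72 h and tyn at 249 at 36 h and 38.3 at 72 h. The 2 higher genes were Gasp, a chitin-binding tracheal protein (121 at 36 h and 266 at 72 h), and the FGF receptor btl (0.421 at 36 h and 4.33 at 72 h).

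The Osiris family, a set of insect-specific membrane protein genes that lie next to each other on arm 3R, split within its own locus. This family was singled out after the values were seen. Of 21 expressed members 5 were at least 2-fold higher and 15 lower. Of 20 Osiris genes between 1999367 and 2167146 of dm3 arm 3R (167.8 kb), 19 were expressed, 13 at least 2-fold lower and 5 at least 2-fold higher. Osi4 (dm3 chr3R:2044040-2047503) was at 645 at 36 h and 3.78 at 72 h, Osi7 at 490.2 at 36 h and 9.13 at 72 h and Osi9 at 625 at 36 h and 61.2 at 72 h. Toward the other end of the locus, Osi15 (dm3 chr3R:2127528-2129375) was at 0.349 at 36 h and 619 at 72 h, Osi19 at 0.172 at 36 h and 326 at 72 h and Osi20 at 0.194 at 36 h and 384 at 72 h. The knockdown pair split the same way, with Osi4 at 372 and 0.721 and Osi15 at 0.287 and 264.

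Small heat shock proteins were among the genes furthest down. Only the 36 h CNS came straight from 29 °C, so age and temperature cannot be told apart here. Of 19 expressed heat shock and chaperone genes, 10 were at least 2-fold lower and 2 higher (median -1.50). Hsp23 (dm3 chr3L:9374984-9375867) was 44.1-fold lower (3044 at 36 h and 69.0 at 72 h), Hsp27 86.8-fold (1003 at 36 h and 11.6 at 72 h), Hsp26 15.1-fold (1158 at 36 h and 76.9 at 72 h), Hsp22 21.7-fold (504 at 36 h and 23.2 at 72 h) and Hsp67Ba 25.4-fold (592 at 36 h and 23.3 at 72 h). The general chaperones changed less, Hsp83 at 888 at 36 h and 532 at 72 h and the constitutive Hsc70-4 at 1167 at 36 h and 667 at 72 h, and the inducible Hsp68 was at 27.5 at 36 h and 6.29 at 72 h. The 2 higher genes were the cochaperone stv (13.5 at 36 h and 29.3 at 72 h) and Hsc70-1 (0.701 at 36 h and 1.69 at 72 h). The knockdown pair, with the same temperatures, had 8 lower and 3 higher. Its list median was -0.36, near the -0.41 of all genes in that pair, and Hsp23 was at 3038 and 95.1. Of 11 clock genes 2 were at least 2-fold higher and 2 lower, with vri at 21.2 at 36 h and 1.03 at 72 h, tim at 10.2 at 36 h and 5.005 at 72 h and per at 8.78 at 36 h and 10.7 at 72 h. The times of day of dissection are not given in the sources used here.

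**Figure D4:**
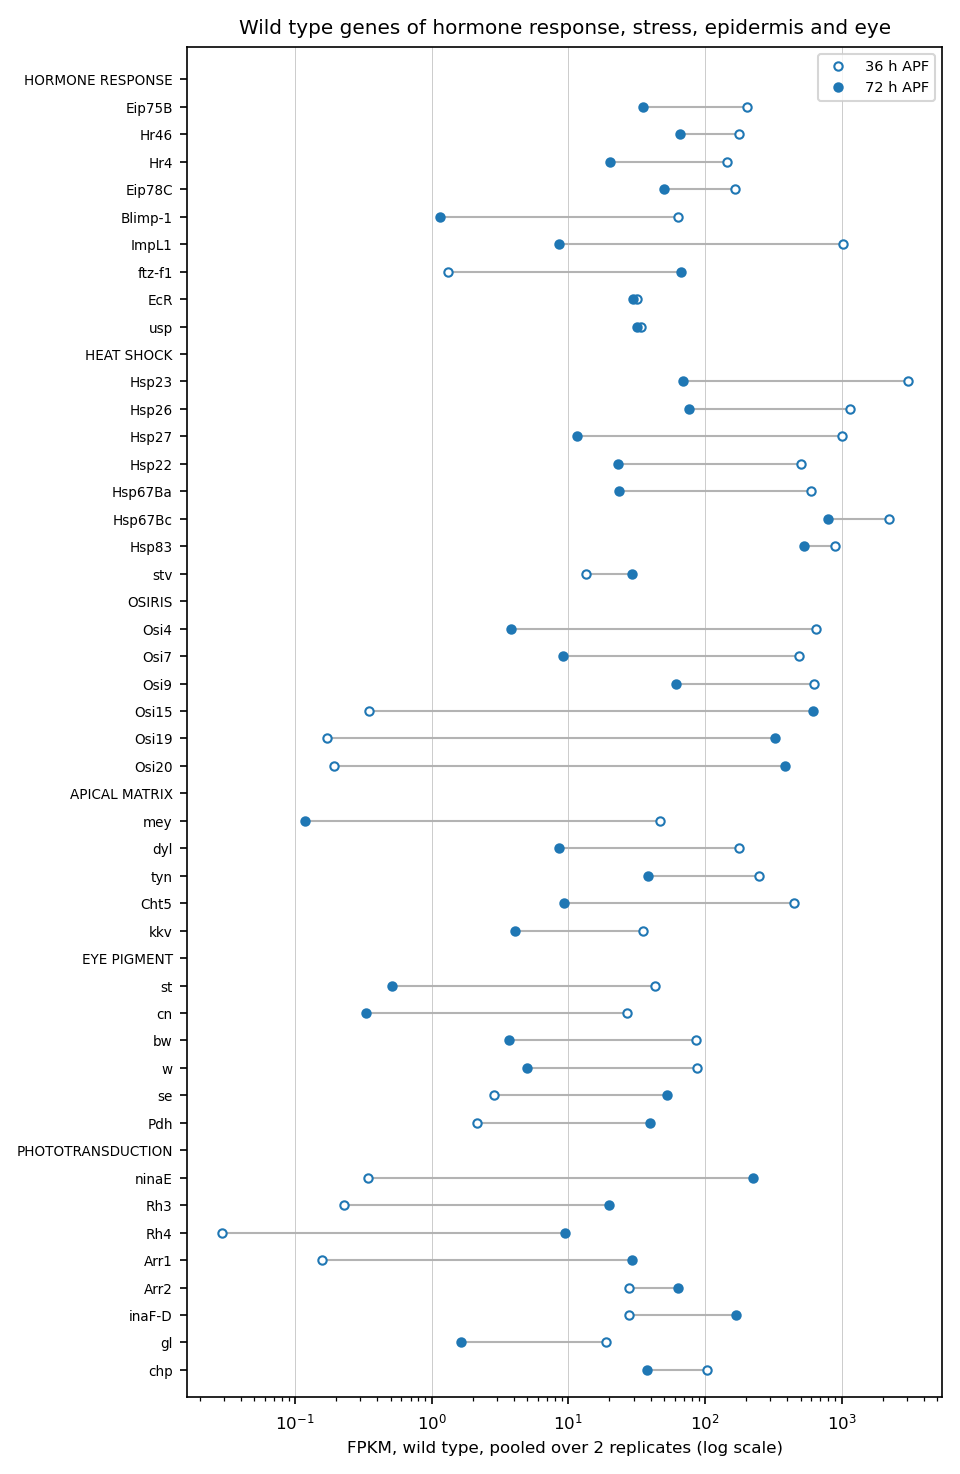
Wild type FPKM at 36 h APF (open circles) and 72 h APF (filled circles) on a log scale for genes of the hormone response, heat shock, the Osiris family, the apical matrix, eye pigment and phototransduction, each circle a value pooled over 2 replicates with no error. EcR and usp nearly coincide, ftz-f1 and Blimp-1 run in opposite directions, and the Osiris genes split into 3 lower and 3 higher.

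Among the largest differences many genes had a CG number only. By log2 of FPKM plus 1, 12 of the 15 largest decreases were small non-coding RNAs listed at 0 at 72 h. Of these 12, 7 were also listed at 0 at 36 h in knockdown and 4 were above 0 at 72 h in knockdown and recovery, as snRNA:U7, at 186 at 36 h and 0 at 72 h in wild type and 0 and 142 in knockdown. Of the 168 expressed RNAs of this kind, 98 were at least 2-fold lower and 34 higher in wild type. But 65 of them were listed at 0 at 72 h and 28 at 0 at 36 h, so many of these changes have no bounded size. Their median log2 change of -1.65 was -0.84 over those with status OK at both ages. Leaving these out, a choice made after the values were seen, the 20 largest decreases held 7 Osiris genes, Hsp27 and 9 genes with a CG number only, and all 20 were at least 2-fold lower in the knockdown pair as well. CG13840 led them (911 at 36 h and 0.930 at 72 h), although it was only 105 at 36 h in the knockdown. Others were CG33299 (276 at 36 h and 0.755 at 72 h), CG11997 (574 at 36 h and 3.94 at 72 h) and CG13023 (358 at 36 h and 2.199 at 72 h).

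Of the 30 largest increases without small RNAs, 20 had a CG number only, 5 were on the cuticle list, 4 were Osiris genes and 17 lay on arm 3L. All 30 were at least 2-fold higher in the knockdown pair too. Their median locus length was 763 bp against 4186 bp for all expressed genes. CG13069 (dm3 chr3L:16258485-16258904) was the largest, at 1.75 at 36 h and 2223 at 72 h, followed by CG34196, at 0.734 at 36 h and 1155 at 72 h in wild type and only 24.4 in knockdown and recovery. CG14752 was at 2.12 at 36 h and 1920.3 at 72 h, CG13678 at 1.79 at 36 h and 1690.5 at 72 h and CG14095 at 0.978 at 36 h and 1197 at 72 h. A run of such genes lay within 20.7 kb of arm 3L, from CG13051 to CG13047 (dm3 3L, 16257813 to 16278496). Of its 13 genes 12 were expressed, 10 were at least 2-fold higher and 1 lower, and together they summed to 58.5 FPKM at 36 h and 9244 at 72 h in wild type, and 34.4 and 10206 in the knockdown pair. No role is given here for its members.

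**Figure D5:**
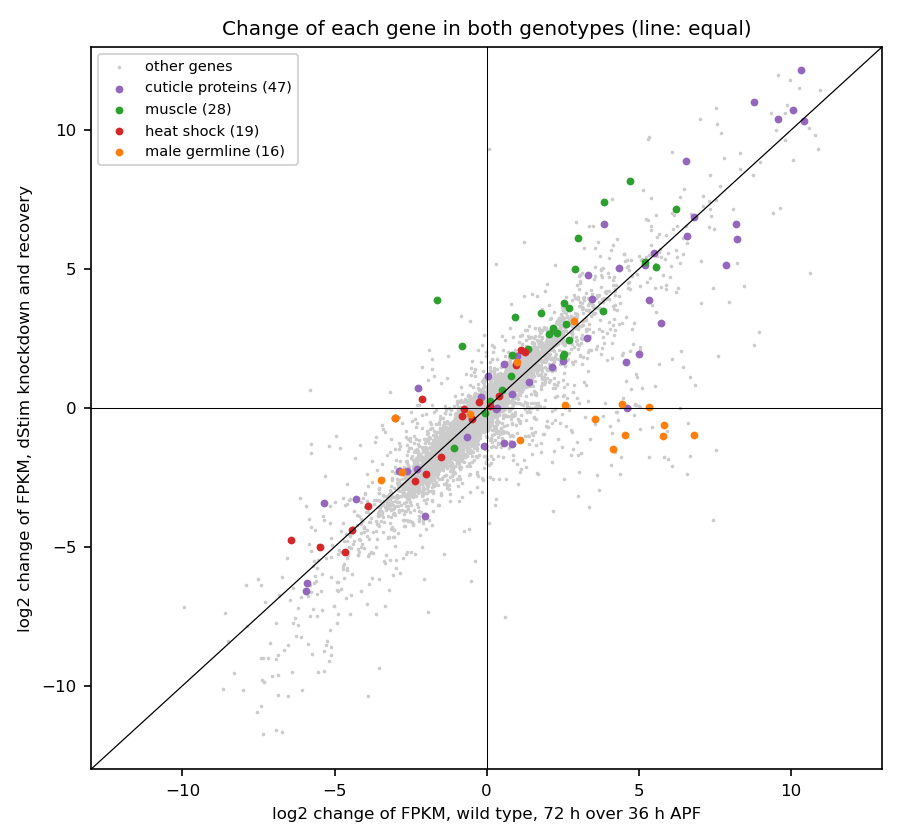
Log2 change of FPKM from 36 h to 72 h APF for each of 9441 expressed genes in wild type (x axis) and in the dStim knockdown and recovery pair (y axis), with 4 lists in colour. The diagonal marks equal change. Over all expressed members, the medians in wild type and in the knockdown pair were -1.50 and -0.36 for heat shock. They were 2.42 and 2.97 for muscle and 3.86 and 2.80 for cuticle genes. Most of the 16 male germline genes with a value above 0 in every group lie below the diagonal.

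Genes at the centre of the study's knockdown comparisons changed with age in wild type by different amounts. The ER calcium sensor Stim was level (42.2 at 36 h and 38.6 at 72 h), whereas olf186-F, which encodes the store-operated channel dOrai, was 2.73-fold lower (77.6 at 36 h and 28.4 at 72 h) and the small GTPase Rala (Ral) 2.88-fold lower (105 at 36 h and 36.5 at 72 h). The IP3 receptor Itp-r83A was higher (14.1 at 36 h and 37.0 at 72 h). The histone methyltransferase Set2 was at 22.5 at 36 h and 40.3 at 72 h, the mitochondrial ribosomal protein gene tko at 27.3 at 36 h and 28.0 at 72 h, and the gap gene gt was under 1 at both ages (0.332 at 36 h and 0.220 at 72 h). In the SOCE and store calcium list, 1 of 18 expressed genes was at least 2-fold higher and 3 lower. Cell death genes had 7 of 18 at least 2-fold lower and 1 higher, with the effector caspase Ice at 29.3 at 36 h and 7.23 at 72 h, the activators rpr at 14.4 at 36 h and 6.51 at 72 h and grim at 8.01 at 36 h and 2.91 at 72 h, and the inhibitor Iap2 higher (42.2 at 36 h and 112 at 72 h).

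The median change differed with the level of expression, without a steady trend. Genes with a mean wild type FPKM from 1 to 3 had a median log2 change of -0.05 and those from 3 to 10 one of -0.72, against -0.50 from 10 to 30, -0.28 from 30 to 100, -0.02 from 100 to 300 and 0.03 above 300. The shares of genes at least 2-fold higher were highest at both ends, 32.7% from 1 to 3 and 27.7% above 300, against 9.96% from 10 to 30. By chromosome arm the medians lay between -0.42 (X) and -0.37 (3L), except for the 78 expressed genes of chromosome 4, at -0.05, of which 6.41% were at least 2-fold higher and 6.41% lower. The knockdown pair gave 0.05 for chromosome 4. Across bins of transcript length with equal numbers of genes the wild type medians went from -0.21 for the shortest to -0.50 for the longest, and those of the knockdown pair from -0.52 to -0.26, so the trend with length turned between genotypes.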

How the data were processed

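RNA-seq of pupal CNS was analysed for wild type at 36 h and 72 h APF, 2 biological replicates each, with the 4 dStim knockdown samples beside them. Libraries were made from 500 ng total RNA. The authors aligned reads with TopHat2 2.0.11 to dm3 and deposited FPKM values from Cuffdiff 2.2.0, geometrically normalized, 1 per gene and group and for each age separately. The deposited test statistics, p-values and fold changes, including the edgeR tables, hold the authors' own comparisons of genotypes within an age and were not used.

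The tables were joined on the gene name. The tables used hold no value per sample, so no SD, interval or test was computed, and depth per sample is unknown from the values. The 3 empty lines of the 72 h table were dropped. The log2 change is that of the FPKM ratio with no pseudocount, for genes with a mean wild type FPKM of at least 1. Medians of gene lists include genes listed at 0 at an age as unbounded changes. Names were matched to RefSeq symbols (96.1% of genes), and transcript lengths came from Ensembl release 115 (96.1% of expressed genes). In 24 rows a name holds several genes, and 33 listed names were not found. No genome was used, so no sequence is shown.

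The samples, gene lists and comparisons were chosen with earlier results of these data known. Of the 50 lists, 46 were written from gene function and 4 after the values were seen (male germline, Osiris, small non-coding RNAs, sodium pump). Genes named by rule are the 15 largest increases and decreases of log2(FPKM + 1), the 10 highest at each age, and in each list the 3 largest increases, the 3 largest decreases and the first 4 members, with 7 genes of the study. Other named genes were chosen after their values were seen. Alternatives were other scales, minimums, folds and a pseudocount of 1. Counting and centring were tested on simulated data. The software was matplotlib 3.10.9, SciPy 1.17.1, Python 3.11.15, NumPy 2.4.6 and pandas 2.3.3.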

Additional observations from a re-analysis of the deposited data

Results flagged for a closer look

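Among the genes of the 46 lists written from gene function that reached an FPKM of 5 in any group, 2 had opposite changes. In these, wild type and dStim knockdown CNS differed by at least 2-fold between the ages in opposite directions. The muscle actin gene Act79B had a log2 change of -1.64 in wild type (16.4 at 36 h and 5.24 at 72 h) and 3.88 in the knockdown pair (1.63 at 36 h and 24.0 at 72 h). The testis tubulin gene betaTub85D had a log2 change of 1.096 in wild type (4.24 at 36 h and 9.06 at 72 h) and -1.13 in the knockdown pair (5.88 and 2.68). Each value is pooled over 2 replicates, and neither difference between genotypes was tested.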

How the results depend on the processing

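No paired analysis was possible because the tables used hold a single value per gene and group, and leaving out a replicate could not be run for the same reason. The 1490 genes at least 2-fold higher became 2964 with no minimum beyond a value above 0 in 1 group, 819 at a mean FPKM of at least 10 and 824 at a fold of at least 4. The 2515 genes at least 2-fold lower became 1640 on the scale centred on the median gene, 1561 when centred within 20 bins of transcript length, 1432 at a mean FPKM of at least 10, 4064 at a fold of at least 1.5 and 907 at a fold of at least 4. Without small non-coding RNAs the counts were 1456 and 2417, and 1142 and 2164 also passed 2-fold in the knockdown pair (alternatives added after the data were examined). There were 15 lists with a median of at least 1 in size on the log2 scale. All 15 kept the sign under each of the 9 alternatives of scale, minimum, pseudocount and status. Centring on the median gene moves every gene by 0.39 and the other common scales by less, so these could not turn such signs. The 15 also include the 4 lists written after the values were seen, so the count is a description. In the knockdown pair 14 kept the sign, and the male germline median was -1.30 in place of 5.73. The cuticle median of 3.86 was 2.24 with a pseudocount of 1, 2.63 with no minimum, 5.41 at a mean FPKM of at least 10 and 0.85 with status OK in both tables. With that status the photoreceptor median was -0.11 in place of 0.51. Without the 100 genes of the highest mean FPKM, which include Obp44a, the difference of the odorant-binding protein share between the ages was -0.0129 percentage points in place of 2.77. Low genes and those at 0 cannot be given an error in these pooled values.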

Other observations

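Cytochrome P450 genes had 17 of 38 expressed members at least 2-fold higher and 8 lower. Of the 79 found, 49 were under 1 at 36 h and 42 at 72 h, so some passed the minimum only through their 72 h value. Among the higher were Cyp28c1 at 0.193 at 36 h and 31.7 at 72 h, Cyp4s3 at 0.785 at 36 h and 39.8 at 72 h and Cyp28a5 at 1.23 at 36 h and 41.2 at 72 h FPKM. Cyp6a17 was at 1.92 at 36 h and 11.5 at 72 h in wild type and under 0.03 at both ages in the knockdown animals (0.0253 and 0.0265), a gap between the genotypes at either age. Of 43 odorant-binding protein genes only 14 were expressed, 3 at least 2-fold higher and 4 lower, shares near those of all genes, among them Obp18a (0.143 at 36 h and 41.9 at 72 h), Obp56d (0.120 at 36 h and 4.17 at 72 h) and Obp56a (138 at 36 h and 11.4 at 72 h). Only 22 of 179 chemoreceptor genes were expressed, 4 at least 2-fold higher and 5 lower, again near the shares of all genes, with Or63a at 1.36 at 36 h and 14.6 at 72 h. Among Rab GTPases, which direct vesicle traffic, Rab27 was 19.3-fold higher (2.62 at 36 h and 50.6 at 72 h), Rab9 was at 2.72 at 36 h and 12.4 at 72 h and Rab23 was 12.4-fold lower (21.6 at 36 h and 1.74 at 72 h), while 18 of 24 were within 2-fold. The innexin shakB, a subunit of gap junctions in the escape circuit, was 2.95-fold lower (120.2 at 36 h and 40.8 at 72 h), and the other 4 expressed innexins were within 2-fold. Of 10 expressed antimicrobial and immune genes 5 were at least 2-fold lower and 0 higher, with CecC at 4.05 at 36 h and 0.253 at 72 h. The fat body list held a single gene past 2-fold higher, the juvenile hormone esterase gene Jhe (0.839 at 36 h and 56.4 at 72 h).

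Of 13 expressed genes of dosage compensation and sex determination 4 were at least 2-fold lower and 0 higher. The roX RNAs of the male dosage compensation complex had a smaller difference between ages in wild type than in the knockdown pair. The values of roX1 were 301 at 36 h and 244 at 72 h in wild type and 294 and 108 in knockdown, and those of roX2 were 72.6 at 36 h and 49.9 at 72 h and 63.1 and 14.7.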
